A study of Mus musculus with 6 samples.

Results

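Of the 15703 genes listed in the deposited expression table, 89 belonged to the oxidative phosphorylation set: 76 rows of nuclear genes and the 13 protein-coding genes of mitochondrial DNA. Members were taken by symbol, as every row whose name begins as the subunit genes of respiratory complexes I to V do, plus the mitochondrial coding genes. Of the 76 nuclear rows, 3 are no subunit gene: Atp5s, Atp5sl (Dmac2 in the GENCODE annotation) and a second row named Ndufa13 that GENCODE assigns to Yjefn3. The remaining 73 nuclear subunit genes comprised 33 of complex I, 4 of complex II, 9 of complex III, 12 of complex IV and 15 of complex V. Ndufb4 and Ndufa11 carry compound symbols in the table and fall outside the rule. Ndufb4 measured 19.4 ± 3.397 FPKM in WT and 17.2 ± 2.37 in cKO (SD, n = 3, limma adjusted p = 0.419), and Ndufa11 measured 14.3 ± 0.683 and 12.4 ± 1.23 (adjusted p = 0.133, same test). So do 3 subunit genes with other names. Ndufab1, the acyl carrier protein of complex I, measured 4.96 ± 0.630 and 5.08 ± 0.260 FPKM (adjusted p = 0.826, limma). Of the small ATP synthase subunits, Usmg5 measured 254.8 ± 36.4 and 202 ± 24.2 (adjusted p = 0.0702) and 2010107E04Rik 152 ± 20.5 and 127 ± 16.9 (adjusted p = 0.144, limma for both). The muscle, lung and testis forms Cox4i2, Cox6a2, Cox6b2, Cox7a1, Cox8b and Cox8c were not listed.

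RNA was sequenced from the neocortex of 6 newborn C57BL/6 mice (postnatal day 0), 3 of them wild type (WT) and 3 conditional knockouts (cKO) of genotype Tcf4 f/f; Emx1Cre/+. Tcf4 encodes an E-protein, a basic helix-loop-helix transcription factor that binds E-box motifs; Emx1-driven Cre acts in progenitors of the dorsal forebrain, so cells of other origin in the tissue, such as interneurons, microglia and vessels, are expected to keep the gene. The labels do not say whether the WT animals carried floxed alleles or Cre. Values are FPKM, fragments per kilobase of exon per 1e6 reads, so they compare levels between genes per length. Groups were compared with limma on log2(FPKM + 1), and calls, lower or higher, rest on a Benjamini-Hochberg adjusted p under 0.05 over all 15703 genes.

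Oxidative phosphorylation makes most of the ATP of neurons. Complex I (NADH dehydrogenase) and complex II (succinate dehydrogenase) pass electrons to coenzyme Q, complex III passes them to cytochrome c, complex IV (cytochrome c oxidase) passes them to oxygen, and complex V (ATP synthase) uses the resulting proton gradient. Complexes I, III, IV and V combine proteins from both genomes, whereas complex II is built from nuclear genes only. Mitochondrial genes are transcribed as long RNAs from both strands that are then cut into single messages, rRNAs and tRNAs.

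Tcf4 itself measured 71.2, 75.6 and 75.3 FPKM in WT 1 to 3 and 56.5, 60.6 and 55.3 in cKO 1 to 3, a fall of 0.36 on the log2 scale (SE 0.0617, limma adjusted p = 0.00411). The row sums all exons, and the deleted part cannot be read from it. The spacing of low values gave approximate library sizes of 23.2 to 26.1 M (1e6 reads). Reads rebuilt with these sizes summed to 25.3 to 28.75 M in listed genes and exceeded the size in every library, so both are approximate. All 7 projection neuron markers were listed and summed to 643 to 693 FPKM over the WT libraries and 680.3 to 717 over the cKO libraries (3 of 7 called lower). In bulk tissue, fewer cells of a type and less RNA per cell cannot be told apart. Summed markers of astrocytes were 81.3 to 101.3 FPKM in WT and 53.5 to 64.5 in cKO (4 of 5 called lower). Those of microglia were 18.2 to 21.1 and 10.4 to 14.9 (3 of 5 lower), those of interneurons 71.4 to 74.8 and 62.4 to 64.1 (2 of 6 lower), and those of dividing cells 20.5 to 24.6 and 24.3 to 33.9 (2 of 4 higher). The part of these cell populations in the values below was not tested.

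Across the 89 members, 22 fell in cKO and 0 rose, beside 8.59% of all listed genes called lower and 7.22% called higher, so 24.7% of members were lower. At an unadjusted p under 0.05, 50 members were lower and 2 higher, beside 2565 lower and 2488 higher of all 15703 genes. The fitted change was below 0 for 85 members, with a median of -0.20 on the log2 scale against 0.0017 for all genes. The exceptions were Ndufb2, Ndufs7, Atp5s and Atp5sl. In 47 members (52.8%) every cKO library lay below every WT library, beside 18.7% of all genes, and in 2 members every cKO library lay above, beside 18.5% of all genes. Calls were split between genomes: 10 of the 13 mitochondrial genes fell (76.9%), with a median log2 change of -0.46, and 12 of the 73 nuclear subunit genes fell (16.4%), with a median of -0.20. A further 17 members were lower at an adjusted p between 0.05 and 0.1, and 11 of the 22 calls had an adjusted p over 0.03, so the count depends on where the threshold stands. It also depends on single libraries: 13 members were called lower without WT 1, 10 without WT 3, 8 without cKO 1 and 11 without cKO 2, of which 6, 3, 1 and 1 were nuclear.

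The mitochondrial genes are described first, since their DNA raises a question of read assignment. It is not theirs alone: 17 of the 76 nuclear rows have an annotated pseudogene of at least 95% identity over at least 200 bases. Of these 17, 2 were called lower, Ndufs6 and Ndufb3, beside 8.59% of all listed genes. The part of such copies in the nuclear values was not tested. Part of the mouse mitochondrial genome also lies as an inserted copy in chromosome 1, where 7 pseudogenes on the minus strand (chr1:24611535-24616197, mm10) are rows of the same table. By alignment of the GENCODE transcripts, ND3, ND4L, COX2, COX3 and ATP6 matched their chromosome 1 copy at 100% identity over 342, 294, 681, 783 and 678 bases. ATP8 lies between COX2 and ATP6, but between their copies on chromosome 1 no pseudogene is annotated. The sequence at that site was not compared with ATP8. Against the listed pseudogenes, no alignment of ATP8 was long enough to be kept. ND4 was identical to a copy over 876 of 1378 bases. COX1 matched one over 483 of 1545 bases with 1 substitution, A1066T, counted from the first base of COX1. The substitution lies only a few bases from the edge of the aligned stretch. Whether it lies inside the copy or at its border was not tested. No chromosome 1 copy aligned to ND1, ND2, ND5, ND6 or CYTB. How reads that match both places were counted is not stated in the labels or notes at hand.

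The sequence of ND4L is shown because it carries no base that tells the 2 sites apart. The 294 bases at chrM:9877-10170 (plus strand, mm10), within the coding exon, occur identically in the exon of pseudogene Gm10222 at chr1:24612407-24612700 (minus strand).
ND4L and Gm10222: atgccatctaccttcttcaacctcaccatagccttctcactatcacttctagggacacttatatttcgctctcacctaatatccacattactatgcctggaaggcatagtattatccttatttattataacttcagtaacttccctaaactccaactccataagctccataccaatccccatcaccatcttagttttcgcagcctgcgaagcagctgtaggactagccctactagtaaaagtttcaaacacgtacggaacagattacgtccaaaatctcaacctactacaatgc

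The edge of the aligned COX1 stretch, with its 1 substitution, is shown for contrast. It comes from chrM:6390-6433 (plus strand) and from pseudogene Gm29216 at chr1:24616145-24616188 (minus strand). The differing base is in capitals, and bases before the first printed one did not align.
COX1: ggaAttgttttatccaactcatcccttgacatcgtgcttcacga
Gm29216: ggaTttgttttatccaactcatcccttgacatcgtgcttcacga

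The listed level followed this map. The 6 genes that lie wholly between the ends of the copied stretch, ATP8 among them, averaged 26.6 to 72.5 FPKM in WT, and the other 7 averaged 695 to 4623 FPKM. All 6 inside fell in cKO, with log2 changes of -0.74 to -0.49 and a median of -0.69. Of the other 7, 4 fell, with changes of -0.46 to -0.12 over all 7 and a median of -0.41.

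**Figure D1:**
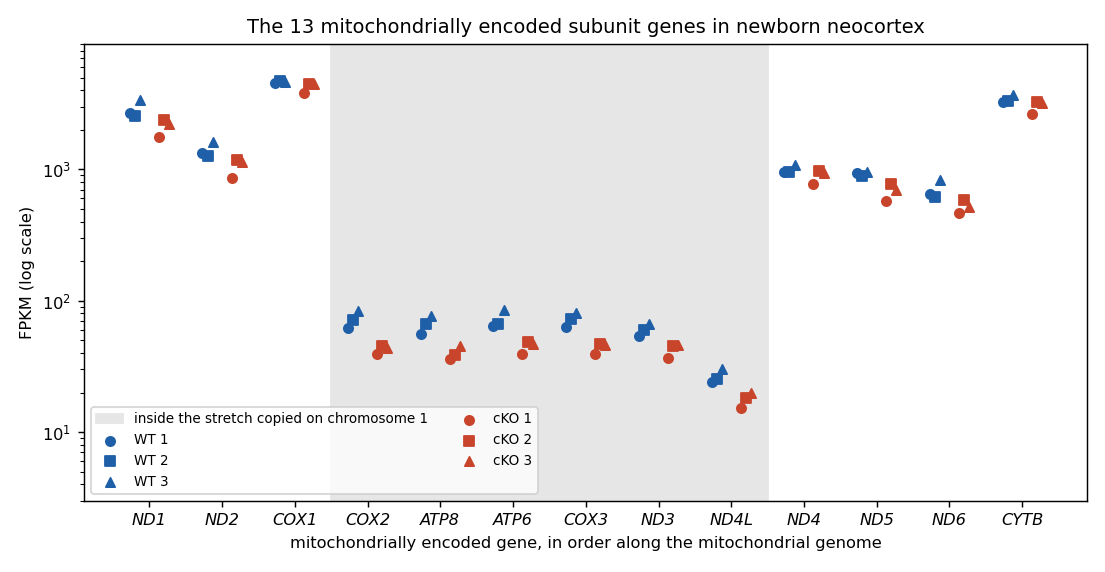
FPKM (log axis) of each mitochondrially encoded gene in the 3 WT (blue) and 3 cKO (red) libraries, in order along the mitochondrial genome. The shaded genes lie wholly between the ends of the stretch copied on chromosome 1. ATP8 among them has no annotated copy. All shaded genes sit under 100 FPKM and separate the groups fully. Of the other 7 genes, 5 also separate the groups fully. ND4, which is copied in part, and CYTB, which has no aligned copy, overlap between groups.

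Inside the stretch, COX2 (mt-Co2, ENSMUSG00000064354, chrM:7013-7696), the complex IV subunit that receives electrons from cytochrome c, measured 62.1, 71.5 and 83.7 FPKM in WT and 39.1, 45.1 and 43.8 in cKO. Every cKO library was below every WT library. The change was -0.74 (SE 0.102, limma adjusted p = 0.00125); the cKO mean differed from the WT mean by -41.1%. COX3, a core subunit of the same complex, measured 62.7, 73.2 and 80.5 FPKM in WT and 39.3, 46.7 and 46.0 in cKO. The groups were again apart, with a change of -0.70 (SE 0.0975, limma adjusted p = 0.00138).

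The proton-channel subunit of ATP synthase, ATP6, measured 64.7, 66.8 and 85.0 FPKM in WT and 39.0, 48.6 and 46.7 in cKO (log2 change -0.67, SE 0.112, limma adjusted p = 0.00353). ATP8, a small subunit of the same membrane part, measured 56.3, 66.6 and 76.1 FPKM and 36.0, 38.9 and 45.5 (log2 change -0.71, SE 0.113, limma adjusted p = 0.00289). Both genes separated the groups; 21.1% of the ATP8 exon is shared with ATP6, so the pair is not independent. ND3, a membrane subunit of complex I, measured 53.7, 60.0 and 66.9 FPKM in WT and 36.7, 45.3 and 45.9 in cKO (log2 change -0.49, SE 0.102, limma adjusted p = 0.0105). ND4L, another membrane subunit, measured 24.2, 25.2 and 30.3 FPKM and 15.4, 18.1 and 19.9 (log2 change -0.55, SE 0.106, limma adjusted p = 0.00709). In each of these 4 genes WT 3 was the highest library and cKO 1 the lowest.

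The 7 chromosome 1 pseudogenes, named after their values were seen, also fell, and none overlapped between groups. Gm28661, the copy of COX2, measured 83.0 ± 6.88 FPKM in WT and 56.1 ± 5.62 in cKO (log2 change -0.56, limma adjusted p = 0.00246). Gm10222, the copy of ND4L printed above, measured 32.1 ± 3.60 and 23.1 ± 2.54 (log2 change -0.46, limma adjusted p = 0.0115), so its level was near that of ND4L itself. The changes of the other 5 were -0.82 for Gm28438, -0.57 for Gm28439, -0.51 for Gm10925 and Gm29216 and -0.50 for Gm28437. The call of Gm10222 was lost with the length and GC correction (limma adjusted p = 0.116). The values of these pseudogenes and of the 5 genes identical to one, ND3, ND4L, COX2, COX3 and ATP6, cannot be assigned to one site from the table, and for ATP8 this was not tested.

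For the genes with no aligned copy that question does not arise from the listed chromosome 1 pseudogenes. Pseudogenes elsewhere were not compared with them. ND5 (ENSMUSG00000064367 in the annotation, chrM:11742-13565), a large membrane subunit of complex I, measured 935, 894 and 961 FPKM in WT and 576, 777 and 693 in cKO. All cKO libraries were lower, and the change was -0.46 (SE 0.0982, limma adjusted p = 0.0123). ND1 (chrM:2751-3707), which forms part of the coenzyme Q site, measured 2701, 2569 and 3369 FPKM in WT and 1774, 2357 and 2223 in cKO. The groups did not overlap (log2 change -0.44, SE 0.123, limma adjusted p = 0.0366). ND2 (chrM:3914-4951) measured 1332, 1272 and 1608 FPKM and 853, 1182 and 1133. It was apart in all libraries, with a change of -0.42 (SE 0.126) and a limma adjusted p of 0.049952, just under the threshold. ND6 (chrM:13552-14070), the 1 coding gene of the light strand, measured 645, 615 and 826 FPKM and 461, 585 and 513 (log2 change -0.41, SE 0.117, limma adjusted p = 0.0397).

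CYTB, the mitochondrial subunit of complex III, measured 3253, 3331 and 3679.5 FPKM in WT and 2636, 3255 and 3213 in cKO. cKO 2 was above the lowest WT library, so the groups overlapped, and the change of -0.18 was not called (SE 0.0905, limma adjusted p = 0.205). ND4 likewise overlapped, at 956, 951 and 1073 FPKM against 778, 970.4 and 936 (log2 change -0.15, limma adjusted p = 0.266). COX1, the catalytic subunit of complex IV and the most abundant member, measured 4580.1, 4688 and 4602 FPKM in WT and 3832, 4498 and 4457 in cKO. All cKO libraries were below WT, with a difference in means of -7.81%, and the change of -0.12 was not called (SE 0.0740, limma adjusted p = 0.286). COX1 and COX2 are subunits of 1 enzyme from 1 genome, but the COX2 value cannot be assigned to 1 site. COX2 per 1000 FPKM of COX1 was 13.6, 15.3 and 18.2 in WT and 10.2, 10.03 and 9.82 in cKO. The groups did not overlap, and the exact two-sided permutation p of 0.1 is the smallest that 3 against 3 allows. The summed FPKM of the stretch genes per 1000 FPKM of the 5 genes with no aligned copy was 36.5, 41.8 and 40.5 in WT and 32.6, 29.8 and 31.9 in cKO (39.6 ± 2.76 and 31.4 ± 1.49, exact two-sided permutation p = 0.1, the smallest possible). Both ratios rest on genes of the copied stretch, so mitochondrial RNA and read assignment cannot be told apart in them.

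Calls in ND1, ND2 and ND6 were lost when WT 1, WT 3, cKO 1 or cKO 3 was left out (limma adjusted p up to 0.116, 0.156 and 0.141), whereas ND5 and the 6 genes in the copied stretch kept theirs in all 6 fits. Quantile normalisation also ended the calls of ND1 (log2 change -0.11, limma adjusted p = 0.374), ND2 (-0.05, adjusted p = 0.677) and ND6 (-0.17, adjusted p = 0.224), and moved ND5 to -0.27 (adjusted p = 0.0434). Neither trend nor robust moderation gave adjusted p-values of 0.0540 for ND1, 0.0709 for ND2 and 0.0588 for ND6. ND2 was also lost with a pseudocount of 0.1 (0.0507), median scaling (0.0502) and voom (0.0570). The length and GC correction moved ND4L to -0.36 without ending its call (limma adjusted p = 0.0103). As a share of approximate reads, the 13 genes took 1.66%, 1.62% and 1.86% of the WT libraries and 1.28%, 1.58% and 1.53% of the cKO libraries.

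Among the nuclear genes of complex I, 7 of 33 fell and 0 rose (21.2% beside the background of 8.59%), with a median log2 change of -0.18. Without cKO 1 or without cKO 2, 1 of the 33 was called lower, and without WT 3, 2 were. With the length and GC correction 3 were. None of the 7 core subunits, which form the catalytic heart shared with bacteria, was called by limma or by voom on approximate reads (median -0.14, 2 lower at an unadjusted p under 0.05), and 1, Ndufv2, passed with the length and GC correction (limma adjusted p = 0.0491). With a replicate block in the fit, alone or with that correction, 1 of the 7 core subunits was called lower. All 7 calls of the main fit were among the 26 supernumerary subunits (median -0.19). The difference between these groups was not tested. By name, 2 of 11 Ndufa, 3 of 9 Ndufb, 0 of 2 Ndufc, 1 of 8 Ndufs and 1 of 3 Ndufv genes fell.

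Ndufs6 (ENSMUSG00000021606, chr13:73319838-73328542, minus strand), an accessory subunit that binds zinc, measured 51.8, 56.7 and 61.6 FPKM in WT and 41.1, 42.9 and 46.1 in cKO. The highest cKO library lay below the lowest WT library, and the change was -0.38 (SE 0.0763, limma adjusted p = 0.00942). It was the 1 nuclear member whose call was kept whichever library was left out (adjusted p up to 0.0425). Ndufv3 (chr17:31520115-31531331), a small protein of the NADH-binding module, had little spread: 16.4, 16.8 and 17.2 FPKM in WT against 13.4, 13.8 and 14.0 in cKO. The groups were apart, with a change of -0.28 (SE 0.0607, limma adjusted p = 0.0136, and 0.0592 at most with cKO 1 or cKO 2 left out). Ndufa1 (chrX:37187588-37191163), an X-linked accessory subunit needed for assembly of the complex, measured 58.4, 63.9 and 69.4 FPKM and 45.1, 50.5 and 54.9. It fell by 0.34 on the log2 scale (SE 0.0868, limma adjusted p = 0.0249).

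Ndufb3 (chr1:58586384-58595964), an accessory subunit of the membrane arm, measured 44.3, 52.7 and 53.8 FPKM in WT and 37.5, 40.8 and 42.6 in cKO. It fell by 0.31 on the log2 scale (SE 0.0842, limma adjusted p = 0.0341). Ndufa5 measured 28.7 ± 2.99 and 22.4 ± 2.52 FPKM (limma adjusted p = 0.0375), Ndufb9 113 ± 10.2 and 92.5 ± 8.16 (adjusted p = 0.0462), and Ndufb6 40.02 ± 2.62 and 32.7 ± 3.73 (adjusted p = 0.0482). Ndufb9, the complex I nuclear gene with the highest mean, shares 19.5% of its exon length with another gene on the same strand, and Ndufb6 has 39.0% overlapped on the opposite strand. Leaving out WT 3, cKO 1 or cKO 2 ended the call of each of Ndufa1, Ndufb3, Ndufa5, Ndufb9 and Ndufb6. So did WT 1 for Ndufa5, Ndufb9 and Ndufb6, WT 2 for Ndufb3 and Ndufb6, and cKO 3 for Ndufb9. With the worst such library left out, the limma adjusted p was 0.0889 for Ndufa1, 0.122 for Ndufb3, 0.133 for Ndufa5, 0.149 for Ndufb9 and 0.173 for Ndufb6. The length and GC correction also ended these 5 calls, with limma adjusted p of 0.117 for Ndufa1, 0.0876 for Ndufb3, 0.0777 for Ndufa5, 0.138 for Ndufb9 and 0.224 for Ndufb6, and moved Ndufs6 to -0.24 (0.0175, still called). Without trend and robust moderation the calls of Ndufb3, Ndufa5, Ndufb9 and Ndufb6 were lost (adjusted p 0.0530 to 0.0693), under quantile normalisation those of Ndufb9 and Ndufb6 (0.101 and 0.0638), and with voom that of Ndufb6 (0.0740).

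Ndufb2, a small membrane-arm subunit, was the 1 subunit gene with every cKO library above WT, at 1.93, 2.44 and 2.12 FPKM in WT and 2.98, 2.79 and 2.74 in cKO. Its level was the lowest of all members, and its change of 0.28 was not called (SE 0.0898, limma adjusted p = 0.0616). Ndufs7, a core iron-sulfur subunit, measured 16.1 ± 1.29 and 16.2 ± 0.524 FPKM (limma adjusted p = 0.915). Ndufc2, at 79.8, 85.8 and 102 FPKM in WT and 72.0, 85.5 and 88.3 in cKO, overlapped between groups (log2 change -0.12, limma adjusted p = 0.442).

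**Figure D2:**
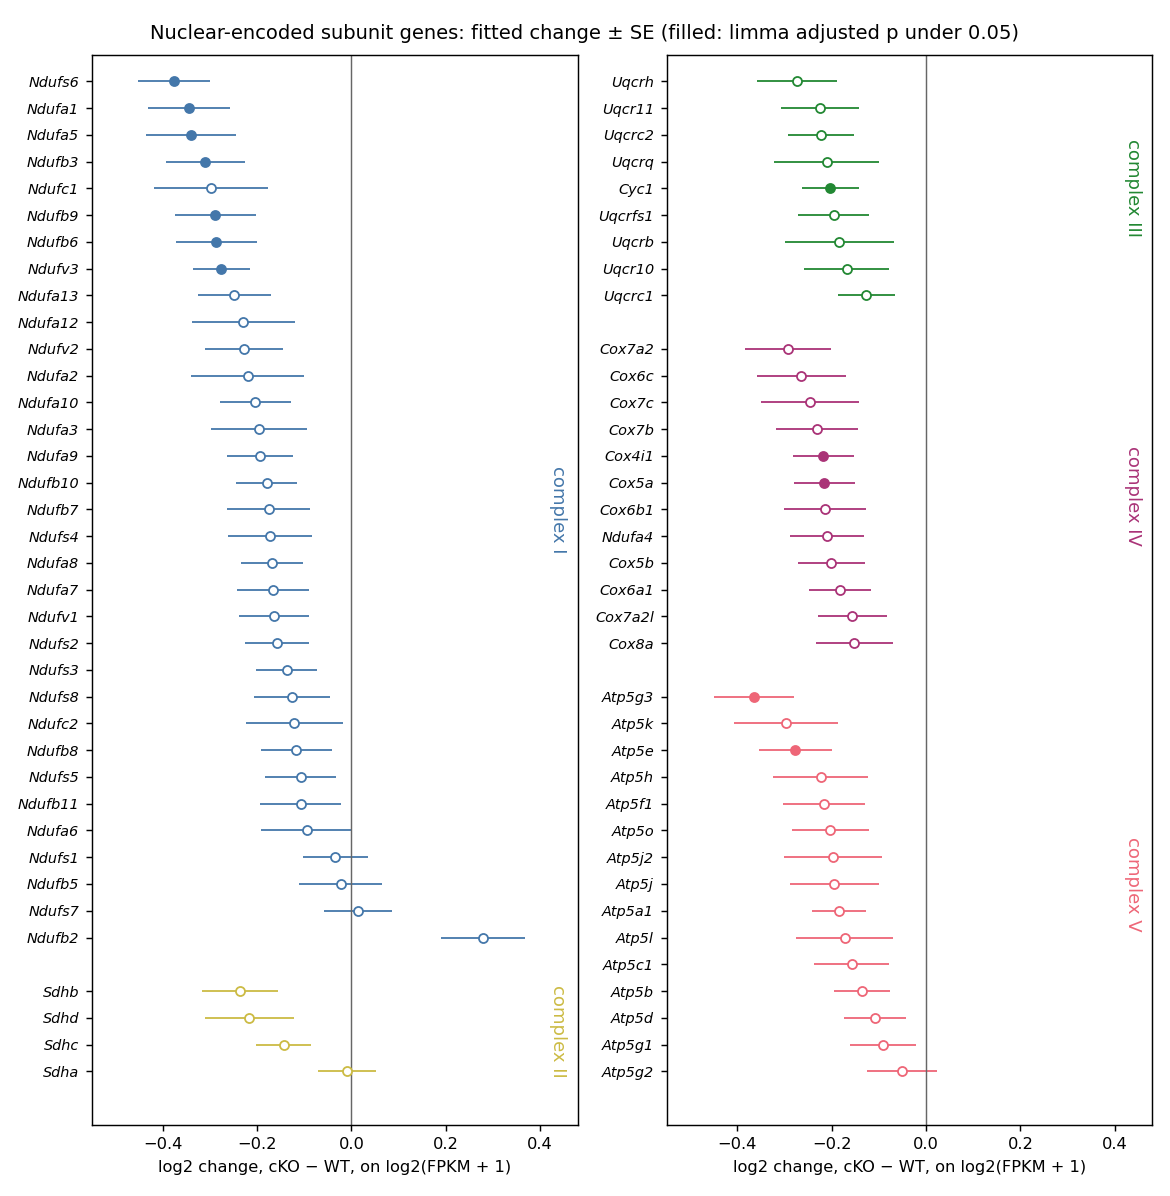
Fitted log2 change (cKO minus WT, on log2(FPKM + 1)) with its SE for the 73 nuclear-encoded subunit genes, by complex; filled points passed limma's adjusted p of 0.05. Most points lie between -0.38 and 0, with 12 filled, and Ndufb2 stands alone at 0.28.

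Complex II, which also works in the tricarboxylic acid cycle, had 0 of 4 genes called, in either direction, by limma, and 0 by voom on approximate reads, while 3 were lower at an unadjusted p under 0.05. With WT 2 left out, 1 of the 4, Sdhb, was called lower. With a replicate block in the fit, 1 of the 4 was called lower too. Sdha, the flavoprotein, measured 43.3, 43.0 and 40.1 FPKM in WT and 40.2, 42.6 and 42.9 in cKO. The groups overlapped fully (log2 change -0.01, SE 0.0615, limma adjusted p = 0.943). Sdhb, the iron-sulfur subunit, measured 39.7, 38.2 and 46.0 FPKM and 32.8, 37.0 and 34.6 (log2 change -0.24, SE 0.0808, limma adjusted p = 0.0744). Its groups did not overlap. Sdhc, a membrane anchor, measured 21.9, 21.2 and 22.2 FPKM and 19.4, 19.8 and 19.6, also apart (log2 change -0.14, SE 0.0586, limma adjusted p = 0.123). Sdhd, the other anchor, measured 45.3, 45.3 and 51.5 FPKM and 35.4, 40.9 and 46.1, with overlap (log2 change -0.22, limma adjusted p = 0.146).

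In complex III, 1 of 9 nuclear genes fell (11.1%, near the 8.59% of all genes), with a median of -0.20. That gene was Cyc1 (chr15:76343523-76346260), the cytochrome c1 that hands electrons to cytochrome c, at 61.2, 63.9 and 65.6 FPKM in WT and 56.8, 52.6 and 55.8 in cKO. All cKO libraries lay below WT (log2 change -0.20, SE 0.0606, limma adjusted p = 0.0475), yet leaving out any 1 of the 6 libraries ended the call (adjusted p up to 0.193). So did quantile normalisation (0.180), the length and GC correction (0.0563), plain moderation (0.0732) and voom (0.0555). Uqcrh, the hinge protein and the nuclear complex III gene with the highest level and the largest change, measured 73.8, 82.8 and 84.2 FPKM and 59.4, 66.8 and 72.9. It was also apart between groups (log2 change -0.27, SE 0.0845, limma adjusted p = 0.0539). Uqcr10 measured 67.7 ± 8.67 and 59.9 ± 3.64 FPKM (limma adjusted p = 0.223).

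In complex IV, 2 of 12 nuclear genes fell (16.7%, beside 8.59% of all genes), with a median of -0.21, and all 12 were fitted below 0. Cox4i1 (chr8:120668222-120674207), the broadly expressed form of subunit 4, which regulates the enzyme's activity, measured 113, 115 and 127 FPKM in WT and 98.0, 102 and 104 in cKO. The groups were apart (log2 change -0.22, SE 0.0645, limma adjusted p = 0.0465). Cox5a (chr9:57521274-57532426) measured 28.5, 28.1 and 30.8 FPKM and 24.8, 24.0 and 26.04, also apart (log2 change -0.22, SE 0.0644, limma adjusted p = 0.0477). Its exon length is overlapped by 12.8% on the opposite strand. Leaving out any 1 library ended the Cox4i1 call (adjusted p up to 0.135), and leaving out any but WT 2 ended that of Cox5a (up to 0.178). Cox4i1 was also lost under quantile normalisation (limma adjusted p = 0.233), the length and GC correction (0.109) and plain moderation (0.0718), and Cox5a under quantile normalisation (0.0640), plain moderation (0.0676) and voom (0.0684). The other isoform-family members were not called. Cox7a2 measured 83.9 ± 7.04 FPKM in WT and 68.5 ± 7.58 in cKO, with the largest nuclear change in the complex (-0.29, limma adjusted p = 0.0545). Cox6b1, the nuclear member with the highest WT mean, measured 175, 183 and 199.9 FPKM and 142, 162 and 178, with overlap (log2 change -0.21, limma adjusted p = 0.122). For the rest, limma adjusted p-values were 0.0830 for Cox6c, 0.0876 for Cox6a1, 0.0970 for Ndufa4, 0.173 for Cox7a2l and 0.224 for Cox8a.

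ATP synthase had 2 of 15 nuclear subunit genes lower (13.3%, near the 8.59% of all genes), with a median of -0.19. Of the 5 genes of F1 counted together with its central stalk (Atp5a1, Atp5b, Atp5c1, Atp5d and Atp5e), 1 fell, Atp5e. Of the 10 genes of the membrane part and the other stalk, 1 fell, Atp5g3. The c subunit, which forms the rotating ring, is encoded by 3 genes that give the same mature protein, and their values differed. Atp5g3 (chr2:73908447-73911326) measured 68.9, 68.8 and 80.6 FPKM in WT and 51.2, 56.8 and 60.9 in cKO. It was apart in all libraries and fell by 0.36 on the log2 scale (SE 0.0848, limma adjusted p = 0.0178, up to 0.0691 with cKO 1 or cKO 2 left out). Atp5g1 (chr11:96068852-96075670) measured 13.5, 12.5 and 12.9 FPKM and 11.2, 12.5 and 12.7 (log2 change -0.09, SE 0.0707, limma adjusted p = 0.399). Atp5g2 (chr15:102662864-102672352) measured 36.2, 38.9 and 40.1 FPKM and 33.8, 38.0 and 39.5 (log2 change -0.05, SE 0.0743, limma adjusted p = 0.671). The groups overlapped in both, and the difference of their changes from that of Atp5g3 was not tested.

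Atp5e (chr2:174461072-174464105), the epsilon subunit of the central stalk at the foot of F1, measured 42.9, 42.1 and 50.6 FPKM in WT and 35.7, 37.2 and 38.1 in cKO. The groups were apart (log2 change -0.28, SE 0.0774, limma adjusted p = 0.0374, and not called when any library but WT 2 was left out, up to 0.120). Its call was lost under quantile normalisation (0.0600) and plain moderation (0.0567). The head subunits Atp5a1 and Atp5b, the most abundant genes of the complex, were also lower in every cKO library without being called. Atp5a1 measured 191, 180.1 and 184 FPKM and 159, 160.4 and 168 (log2 change -0.18, limma adjusted p = 0.0562). Atp5b measured 178, 174 and 181 FPKM and 155, 163 and 168 (log2 change -0.14, limma adjusted p = 0.141). Of the rows that are no subunit, Atp5s measured 4.46 ± 0.341 and 5.67 ± 0.699 FPKM with every cKO library above WT (limma adjusted p = 0.0672). Atp5sl measured 5.65 ± 0.316 and 5.80 ± 0.307 (adjusted p = 0.787, same test).

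The members moved together by library. WT 3 was the highest of all 6 libraries in 66 of the 73 nuclear subunit genes, cKO 1 was the lowest in 62, and both held in 58. Relative to each gene's WT mean, the median nuclear subunit stood at 94.6%, 96.5% and 108% in WT 1 to 3 and at 80.5%, 87.1% and 92.4% in cKO 1 to 3. Summed over these genes, the WT libraries held 3825, 3937 and 4368 FPKM and the cKO libraries 3257, 3526 and 3745, so WT 1 and cKO 3 differed by less than WT 1 and WT 3. In the mitochondrial set WT 3 was highest in 12 of 13 genes and cKO 1 lowest in 13 of 13. Without WT 3 and cKO 1, 11 members were called lower, 2 of them nuclear, and the members' median change was -0.09, with 78 of 89 fitted below 0. All 11 of those calls were among the 22. The members are thus not independent measurements of the genotype.

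**Figure D3:**
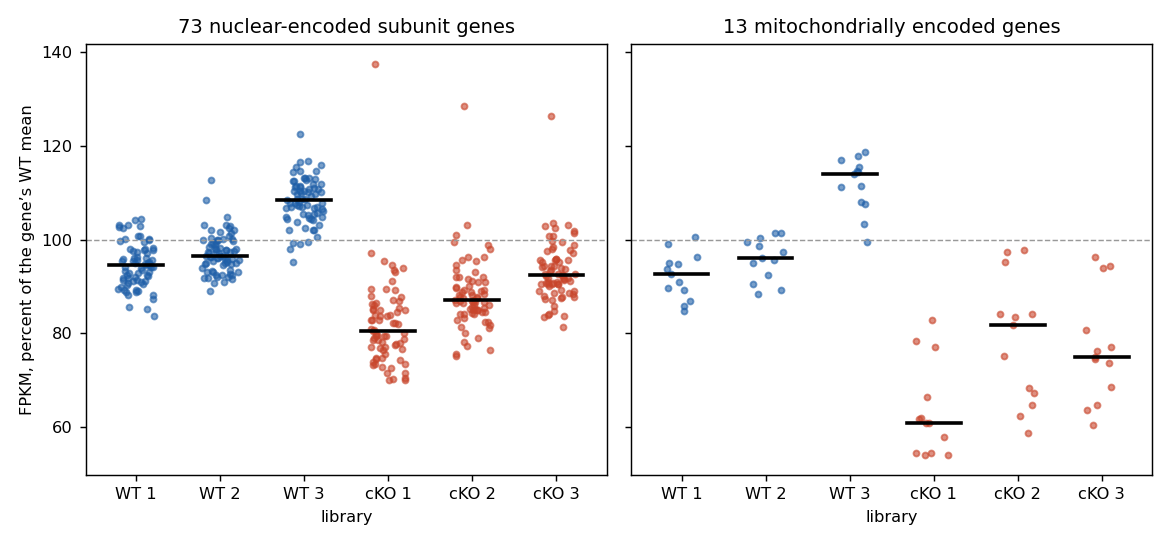
FPKM of each subunit gene in each library as a percentage of that gene's WT mean, for nuclear (left) and mitochondrial (right) genes; black bars are medians and the dashed line is the WT mean. Medians of the nuclear genes run from 94.6 to 108 in WT and from 80.5 to 92.4 in cKO.

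Transcript length moved with the change. The members are short, with a median exon length of 1545 bases against 4229 for all genes. Spearman's rho between log2 change and exon length was 0.23 over the 15655 genes matched to the annotation, 0.47 over the 89 members and 0.37 over the 73 nuclear subunit genes. These points share libraries and are no replicates. With a smooth trend in exon length and GC content taken out of each library, 20 members were lower and 1 higher, 15 of the 22 calls were kept, and the members' median change was -0.13.

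**Figure D4:**
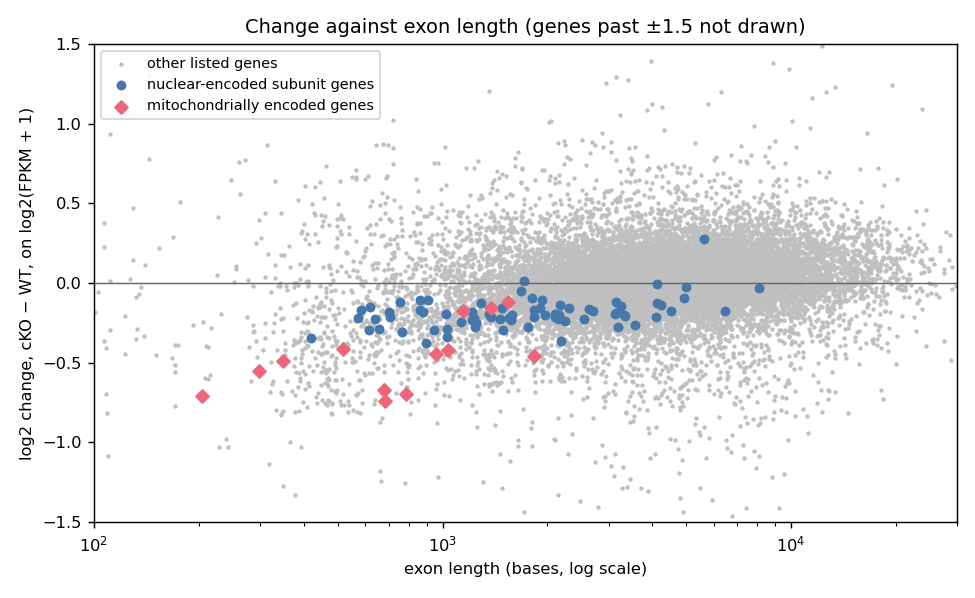
Log2 change (cKO minus WT, on log2(FPKM + 1)) against exon length (bases, log axis) for nuclear-encoded subunits (blue), mitochondrially encoded genes (red) and the other listed genes (grey), with changes beyond 1.5 not drawn. Subunit genes lie mostly to the left of the median of 4229 bases, and below 0.

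Promoters of the nuclear subunit genes were read for letters of factors known to act on them. A RefSeq promoter (GRCm38.p6, 250 bases before to 50 after the start) was found for 61 of the 73 genes and compared with all 27025 promoters of that length, on both strands. The NRF1 core, the palindrome formed by GCGCA followed at once by TGCGC, occurred in 4 of the 61 (6.56%) and in 0.98% of all. The ETS core CCGGAAG occurred in 15 (24.6%) and in 9.12%, and the YY1 core AAGATGG in 10 (16.4%) and in 6.48%. The general E-box CANNTG, which includes the next 2 motifs, occurred in 42 (68.9%) and in 72.2%. CAGCTG occurred in 5 (8.2%) and in 16.1%, and CACCTG in 14 (23.0%) and in 20.03%. These matches describe letters and not binding. Since NRF1 letters showed the largest ratio to all promoters, 70-base windows around 3 matches upstream of the start are shown, in the gene's direction, with the motif in capitals, first base 42, 50 and 162 bases before the start; the fourth match, in Uqcrc1, lies after it. They come from chr15:102671050-102671119, chr5:108434410-108434479 and chr5:115349081-115349150, all minus strand.
Atp5g2: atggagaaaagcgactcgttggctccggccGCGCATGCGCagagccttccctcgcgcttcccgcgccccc
Atp5k: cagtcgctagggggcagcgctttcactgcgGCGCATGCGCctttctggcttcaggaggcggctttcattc
Cox6a1: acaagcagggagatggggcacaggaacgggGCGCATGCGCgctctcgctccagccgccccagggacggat

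None of these 3 genes was called. Cox6a1 measured 131, 138 and 146 FPKM in WT and 116, 121 and 128 in cKO, apart between groups (log2 change -0.18, limma adjusted p = 0.0876).

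Companion lists of other mitochondrial genes were read beside the members. Of 145 listed names in 7 companion lists, 137 were measured, of which 3 fell and 3 rose, with a median change of -0.06. These are 2.19% in each direction, beside 8.59% of all genes called lower and 7.22% called higher. The median was -0.10 for 17 complex I assembly factors and -0.02 for 34 assembly factors of the other complexes. It was 0.03 for 20 genes of mitochondrial DNA upkeep and transcription, 0.02 for 11 regulators of biogenesis and -0.06 for 19 genes of the tricarboxylic acid cycle. It was -0.13 for 20 electron carriers, coenzyme Q genes and others outside the symbol rule, among them the subunit genes Ndufab1, Usmg5 and 2010107E04Rik, and -0.12 for 16 carriers and outer membrane genes. Whether these lists differ from the subunits was not tested.

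**Figure D5:**
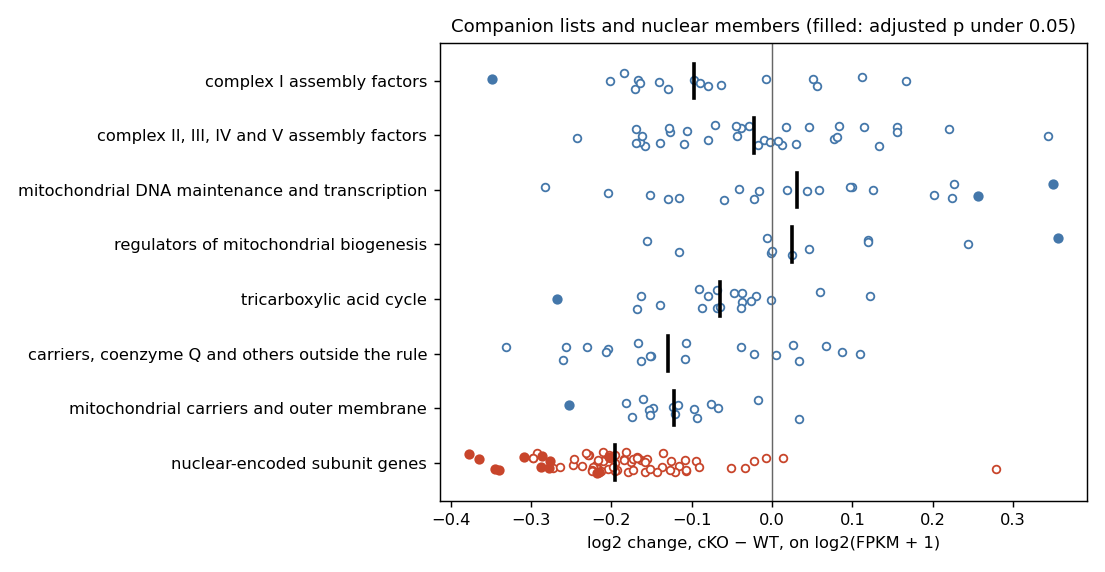
Log2 change (cKO minus WT, on log2(FPKM + 1)) of each gene in the 7 companion lists (blue) and of the nuclear-encoded subunits (red); black bars are medians and filled points passed limma's adjusted p of 0.05. Companion medians lie between -0.13 and 0.03, and that of the subunits at -0.20.

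Ndufaf2, which helps assemble complex I, fell from 32.5 ± 2.89 to 25.3 ± 1.502 FPKM (log2 change -0.35, limma adjusted p = 0.0142). Pcx, the pyruvate carboxylase, fell from 9.94 ± 0.360 to 8.09 ± 0.297 FPKM (adjusted p = 0.0241, limma). Slc25a4, an ATP and ADP exchanger of the inner membrane, fell from 189.8 ± 9.31 to 159 ± 7.90 FPKM (adjusted p = 0.0271, limma). Against these, Polrmt, the mitochondrial RNA polymerase, rose from 4.73 ± 0.371 to 6.30 ± 0.356 FPKM (log2 change 0.35, limma adjusted p = 0.0166). Pprc1, a coactivator related to PGC-1, rose from 5.41 ± 0.336 to 7.23 ± 0.819 FPKM (adjusted p = 0.0231, limma), and Exog, a mitochondrial nuclease, from 5.78 ± 0.498 to 7.08 ± 0.105 FPKM (adjusted p = 0.0474, limma). Each of these 6 calls was lost without cKO 1, 5 (all but Polrmt) without cKO 2 and 5 (all but Ndufaf2) without WT 1, with adjusted p up to 0.0622 for Ndufaf2, 0.0969 for Pcx, 0.0902 for Slc25a4, 0.0702 for Polrmt, 0.0856 for Pprc1 and 0.136 for Exog. The calls of Exog and Pprc1 were lost without WT 3 too, and that of Exog without cKO 3. Quantile normalisation ended those of Exog and Slc25a4 (limma adjusted p = 0.0605 and 0.0725), and median scaling that of Exog (0.0550). Tfam, which packages and transcribes mitochondrial DNA, measured 11.6 ± 0.981 and 10.5 ± 0.250 FPKM (limma adjusted p = 0.255). Ppargc1a measured 2.71 ± 0.189 and 2.77 ± 0.0810 (adjusted p = 0.862, same test). Cycs, cytochrome c, measured 16.1 ± 1.05 and 13.4 ± 1.30 (adjusted p = 0.0619, same test).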

How the data were processed

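FPKM values of 6 neocortex libraries, 3 WT and 3 cKO, were computed by the authors, as the file names them per the file headers. Tools named in the submitters' processing notes were bcl2fastq 1.8.4, STAR 2.5.4b, featureCounts 1.6.1, R 3.4.1 and DESeq2 1.22.1, with the build mm10. Strand setting, annotation and the handling of multiply aligned reads are not stated there. After 139 blank lines were left out, 15703 genes remained, of which 15655 matched GENCODE M21 (mm10) by identifier.

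From the deposited FPKM, log2(FPKM + 1) was taken and fitted with limma 3.58.1 (R 4.3.3; trend, robust, genotype as the only term), with Benjamini-Hochberg adjustment over 15703 genes. These log2 changes understate those of low genes. Summaries used Python 3.11.15, pandas 2.3.3, numpy 2.4.6, scipy 1.17.1 and biopython 1.88. Errors are SD with n = 3. Groups and replicate numbers came from titles with 6 animal codes; nothing else says what animals shared, so p-values measure the spread between these samples. Approximate reads were rebuilt from FPKM, exon length and a library size of 23.2 to 26.1 M (1e6 reads), at which 94.8% to 96.0% of low values lay within 0.1 of a whole read. The fit was tested on simulated data.

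The members and lists were chosen with earlier results of these data known. Named were all mitochondrial members, the Sdh genes, isoform families, and in complexes I, III, IV and V up to 4 called nuclear members with the smallest p, the 2 with the highest level and the 1 with the largest change; in companion lists, up to 3 called genes. Ndufa5, Ndufb6, Ndufb2, Ndufs7, Ndufb4, Ndufa11, Atp5s, Atp5sl, Ndufab1, Usmg5, 2010107E04Rik, Cycs, Tfam, Ppargc1a and the chromosome 1 copies were chosen after their values were seen. Alternatives covered pseudocount, low-value filter, scaling, length and GC, moderation, replicate block, left-out libraries and voom. Among the other marker lists, striatal (4 of 6 listed), thalamic to hindbrain (2 of 6), choroid plexus (1 of 5) and striated muscle (2 of 4) summed to at most 8.98, 0.898, 2.55 and 2.58 FPKM in any library. Blood (3 of 5) summed to 31.7 to 36.3 in WT and 28.2 to 34.9 in cKO, and endothelial cells (4 of 4) to 26.8 to 31.3 and 25.3 to 28.8.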

Additional observations from a re-analysis of the deposited data

How the results depend on the processing

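Against 22 members lower and 0 higher, 13 were lower under quantile normalisation, 11 with neither trend nor robust moderation, 46 with a replicate block and 11 without both WT 3 and cKO 1 (chosen after seeing the data). Leaving out 1 library gave 8 (without cKO 1) to 21 lower and 0 to 2 higher. The length and GC correction, the plain moderation and voom on approximate reads (added after seeing the data) each called 1 higher, Atp5s or Ndufb2. Companion genes, 3 lower and 3 higher, became 7 lower and 5 higher with the length and GC correction, 8 lower with the replicate block, 7 lower with both, and 0 and 0 without WT 3 and cKO 1. Leaving out 1 library gave 0 to 4 lower and 0 to 6 higher. The cause was not tested. In pairs of the same number, deviations from the group means correlated at -0.043, 0.109 and -0.038. Not every sample correlated best with its own number. Each deviation is taken from a mean of only 3 libraries, so these values cannot decide whether the numbers pair the animals.

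Uncalled changes near 0 changed sign. Under quantile normalisation ND4 became 0.038 and Sdha 0.036; with voom Sdha became 0.00041. With the length and GC correction, alone and with the replicate block, Cox8a became 0.0014, Atp5g2 0.016, Ndufc2 0.023 and Uqcr10 0.0043. Without both WT 3 and cKO 1, Atp5g2 became 0.045 and Ndufc2 0.070. With 1 library left out, Sdha ran from -0.042 to 0.021, Atp5g2 from -0.097 to 0.014, Ndufs7 from -0.050 to 0.048 and Atp5sl from -0.0043 to 0.063. Of 976 comparisons over 61 named results, 786 kept direction and side of the threshold. The planned edgeR and DESeq2 fits were not run, since the values are no counts. Depth limits mainly low members, such as Ndufb2, and short genes, such as the tRNAs described below.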

Other observations

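Both rRNAs and 6 tRNAs of mitochondrial DNA, listed but no members, were described after their values were seen. The rRNA mt-Rnr2 measured 1236, 1150.3 and 1642 FPKM in WT and 723, 989.6 and 894 in cKO, and fell by 0.62 on the log2 scale (limma adjusted p = 0.0195), a call that was lost when cKO 1 was left out. The other rRNA, mt-Rnr1, measured 475, 484 and 634 FPKM and 418, 514 and 464, with overlap between groups (limma adjusted p = 0.300). All 6 tRNAs were fitted below 0. The glutamate tRNA mt-Te measured 15.6, 12.96 and 15.5 FPKM in WT and 4.29, 3.58 and 6.25 in cKO, with no overlap (log2 change -1.48, SE 0.148, limma adjusted p = 0.000192). It was called lower under all alternatives run, including each left-out library. The gene spans only 69 bases, so these FPKM stand for few reads per library. The asparagine tRNA mt-Tn measured 249.7 ± 20.3 and 172 ± 37.9 FPKM (limma adjusted p = 0.0319) and the proline tRNA mt-Tp 231 ± 27.1 and 179 ± 22.04 (adjusted p = 0.0413, same test). Both calls were lost with the length and GC correction, under quantile normalisation and when some single library was left out (WT 1, WT 2 or WT 3 for mt-Tn, and WT 2, WT 3, cKO 1 or cKO 3 for mt-Tp). The uncalled mt-Tl1, mt-Tc and mt-Tl2 had log2 changes of -0.85, -0.54 and -0.67 (limma adjusted p = 0.0533, 0.110 and 0.232). How rRNA was kept or removed in these libraries bears on both values and was not tested.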
